A study of Mus musculus with 12 samples.

Results

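The nuclear genes of the mitochondrial respiratory chain were taken as all probes whose gene symbol begins with Nduf, Uqcr, Cox4 to Cox8 or Atp5, or is Sdha, Sdhb, Sdhc, Sdhd, Cycs or Cyc1. This rule found 87 genes, of 15081 named on the array, through 88 of its 21738 probes. They comprised 31 probes of complex I, 4 of complex II, 9 of complex III, 17 of complex IV, 17 of complex V (16 genes), 1 of cytochrome c, 7 of complex I assembly factors and 2 whose symbols mark pseudogenes. Ndufa4 was counted with complex IV, where its protein is now placed.

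The study profiled neurospheres, free-floating balls of dividing neural precursors, from mouse cortex of gestational day 12.5 cultured without serum in the presence of LIF, EGF and basic FGF. The 12 arrays formed 4 groups of 3: control cultures at 24 h, cultures given an adenovirus expressing CD133/R-prominin1 (prominin cultures) at 24 h, and both again at 108 h. Each array compared a neurosphere RNA (Cy5) with a shared reference RNA from whole C57/Bl6 embryos at gestational day 12 (Cy3), without a dye swap. The treatment text gives the controls medium only while the design text mentions GFP, so effects of virus and of prominin-1 cannot be told apart. For the 24 h prominin samples the treatment text says 108 h, which contradicts their titles, and the titles were followed. Replicates are not stated to be separate cultures, so any p-value reflects only the scatter among these 12 samples, which may be technical.

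Mitochondria make most of a cell's ATP through this chain. Complex I takes electrons from NADH and complex II from succinate, complex III passes them to cytochrome c, complex IV delivers them to oxygen, and complex V, the ATP synthase, makes ATP from the proton gradient that complexes I, III and IV build. Most subunits are encoded in the nucleus and a few in mitochondrial DNA, and only nuclear genes are described here. Neural stem cells are known to lean on glycolysis, and oxidative metabolism gains weight as they differentiate.

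Values are log2 ratios of neurosphere to whole embryo after subtraction of an array median, taken over the 4532 probes with a value on all 12 arrays, so 0 stands for that median probe and not for equal RNA in sample and reference. The array medians taken out ran from −2.59 to −0.84. The ratio's direction is not stated in the labels, and it was read as sample over reference: neural stem and radial glia genes then lay at 3.72 ± 0.38 (SD, n = 12 arrays, median of 6 probes), and muscle genes such as Tnnt2 (−4.07 ± 0.81) and erythroid genes such as Hba-x (−6.76 ± 0.91, n = 10) lay far below 0. Not every marker did so on all arrays: Hba-a1 averaged −3.25 ± 2.62 over the 12 arrays but 0.01 ± 0.56 in prominin cultures at 108 h. The muscle gene Myh6 had a positive mean. Exact zeros and the highest value of the table, a code shared by many cells, were treated as missing. The targeted gene's probe, Prom1, averaged 1.19 in control and −1.03 in prominin cultures at 24 h (2 arrays each), and −3.06 in control (3 arrays) and −0.48 in prominin cultures (2 arrays) at 108 h, so it did not mark the prominin cultures at 24 h. Whether it detects the virus transcript was not tested, so the group names rest on the labels alone.

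Respiratory chain probes were measured far more often than the rest of the array. Of the 88 probes, 66 (75%) had a value on all 12 arrays, against 20.8% of all probes. On single arrays, 87.5 to 95.5% of the members were measured, against 47.9 to 66.5% of all probes at 24 h and 73.3 to 76.4% at 108 h. Values equal, within 0.0011 on the log2 scale, to a ratio of 2 different whole numbers of at most 10 accounted for 7.59 to 19.2% of the members at 24 h, and later, at 108 h, for 1.22 to 5.06%. The same shares over all probes were 39.2 to 56.1% and 3.84 to 9.97%. The gap between the times was thus present in the members too, though smaller than on the whole array.

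The promoters of 4 genes are shown as examples of high and low levels and of a tissue isoform: Ndufb4, which was high on every array, Cox6a1 and Sdhd, which were among the lowest, and Cox8b, an isoform known from heart and skeletal muscle. None of them stands for the many members near the median probe. Each line gives the 250 bases before the start site from RefSeq (GRCm38.p6), 5′ to 3′ on the gene's strand, with capitals for the letters of 3 motifs on either strand: the palindrome of nuclear respiratory factor NRF1, which here reads GCGCACGCGC, GCGCAGGCGC or GCGCATGCGC, CCGGAAG, bound by GABPA (NRF2), and GGGCGG, bound by SP1. All 4 genes lie on the minus strand, at chr16:37654369-37654618, chr5:115348959-115349208, chr9:50603850-50604099 and chr7:140900447-140900696 in the order printed.
Ndufb4: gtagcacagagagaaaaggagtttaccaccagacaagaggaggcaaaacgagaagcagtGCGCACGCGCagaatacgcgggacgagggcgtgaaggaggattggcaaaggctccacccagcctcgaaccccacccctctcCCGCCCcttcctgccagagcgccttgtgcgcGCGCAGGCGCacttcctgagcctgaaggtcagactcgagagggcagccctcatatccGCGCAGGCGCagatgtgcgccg
Cox6a1: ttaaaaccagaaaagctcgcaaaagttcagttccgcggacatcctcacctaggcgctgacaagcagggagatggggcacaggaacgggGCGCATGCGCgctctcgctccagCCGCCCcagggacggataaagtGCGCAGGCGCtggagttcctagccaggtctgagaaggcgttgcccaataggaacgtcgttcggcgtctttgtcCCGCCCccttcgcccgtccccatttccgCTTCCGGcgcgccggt
Sdhd: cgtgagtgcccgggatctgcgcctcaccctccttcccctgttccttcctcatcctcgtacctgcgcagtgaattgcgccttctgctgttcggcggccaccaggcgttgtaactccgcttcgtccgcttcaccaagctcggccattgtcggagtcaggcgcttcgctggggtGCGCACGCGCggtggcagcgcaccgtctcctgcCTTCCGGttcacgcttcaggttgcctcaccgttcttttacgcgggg
Cox8b: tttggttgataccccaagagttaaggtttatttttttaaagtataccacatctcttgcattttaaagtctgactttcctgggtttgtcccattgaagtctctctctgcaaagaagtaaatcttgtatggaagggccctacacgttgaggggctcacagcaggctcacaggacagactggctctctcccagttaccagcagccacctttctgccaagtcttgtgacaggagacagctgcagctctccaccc

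The NRF1 letters occurred 3 times in the printed Ndufb4 window, with their last match 22 bases before the start, and 2 times in that of Cox6a1. The Sdhd window held both the NRF1 and the GABPA letters, and the Cox8b window held none of the 3 motifs. Of the 4 printed genes, the high Ndufb4 and the low Cox6a1 and Sdhd thus all carried NRF1 letters, whereas the promoters of Ndufv3 and Atp5md, the highest and the lowest in mean of the probes measured on every array, did not. A match is not a bound site.

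RefSeq promoters of 300 bases (250 before and 50 after the start) were matched for 69 of the 87 genes. The NRF1 letters stood in 15 of 69 (21.7%), against 12.9% of the 3314 genes measured on all 12 arrays and 5.19% of all 27025 genes with a promoter. They stood in 5 of 14 complex V genes, 5 of 28 complex I genes and 1 of 12 complex IV genes. The YY1 motif stood in 6 of 69 (8.7%), 4 of them complex I genes, against 2.84% of the genes measured on all arrays. The GABPA letters stood in 24.6% against 22.3%, shares that lie close together, and were found in 6 of 14 complex V genes but 2 of 28 complex I genes. SP1 letters were less frequent in the members (47.8%) than in the genes measured on all arrays (68.8%), and a TATA box (TATAAA on the gene's strand) stood in 4.35% against 6.49%. The ESRRA letters TCAAGGTCA were found in 1 member, Sdhd. The 69 genes include members not measured on all arrays. Among the 54 measured on all 12, the shares were 20.4% (NRF1), 9.26% (YY1), 20.4% (GABPA, below the 22.3%), 48.1% (SP1) and 3.7% (TATA box), and none had the ESRRA letters. The motifs may overlap in a promoter, and these shares are descriptions of letters, with no test.

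Relative to the median probe, the respiratory chain sat close to the middle of the array. The members' median averaged 0.16 ± 0.25 (SD, n = 12 arrays), above 0 on 10 of 12 arrays. Of the 66 probes measured throughout, 52 (78.8%) had a mean level within 1 log2 unit of the median probe, against 56.4% of all 4532 such probes. Their interquartile range was 0.87 against 1.72. None of the 66 lay above 2, where 9.07% of all such probes lay, whereas 6 lay below −2 (9.09%, against 8.83%). The members therefore formed a narrow band with a few very low probes.

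The medians of the complexes differed. The mean over arrays of the per-array median was 0.85 ± 0.67 for complex II (3 genes), 0.46 ± 0.33 for complex III (7), 0.23 ± 0.25 for complex I (28), −0.02 ± 0.53 for complex IV (10) and −0.13 ± 0.27 for complex V (12), all on the centred scale. Without centring all 5 medians were negative. Differences between complexes on the same array do not depend on the centring. Complex III exceeded complex V on 12 of 12 arrays by 0.59 ± 0.25 and complex IV on 12 of 12 by 0.48 ± 0.29, and complex I exceeded complex V on 12 of 12 by 0.35 ± 0.27. Complexes IV and V had no settled order (IV higher on 7 of 12 arrays, difference 0.10 ± 0.44). Complex II, with 3 genes, exceeded complex III on 8 of 12 arrays by 0.39 ± 0.67, a difference smaller than its spread. The 3 genes leave out Sdhd, not measured on every array, whose mean was −6.17 on 9 arrays. These differences are between groups of ratios to the embryo, not between amounts of RNA of different complexes. All arrays read the same probes against a shared reference, so counts and SDs over arrays do not describe the spread between genes. Quartiles of the probe means overlapped for complexes III (−0.17 to 0.77), I (−0.02 to 0.62), V (−0.40 to 0.28) and IV (−0.78 to 0.27).

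**Figure D1:**
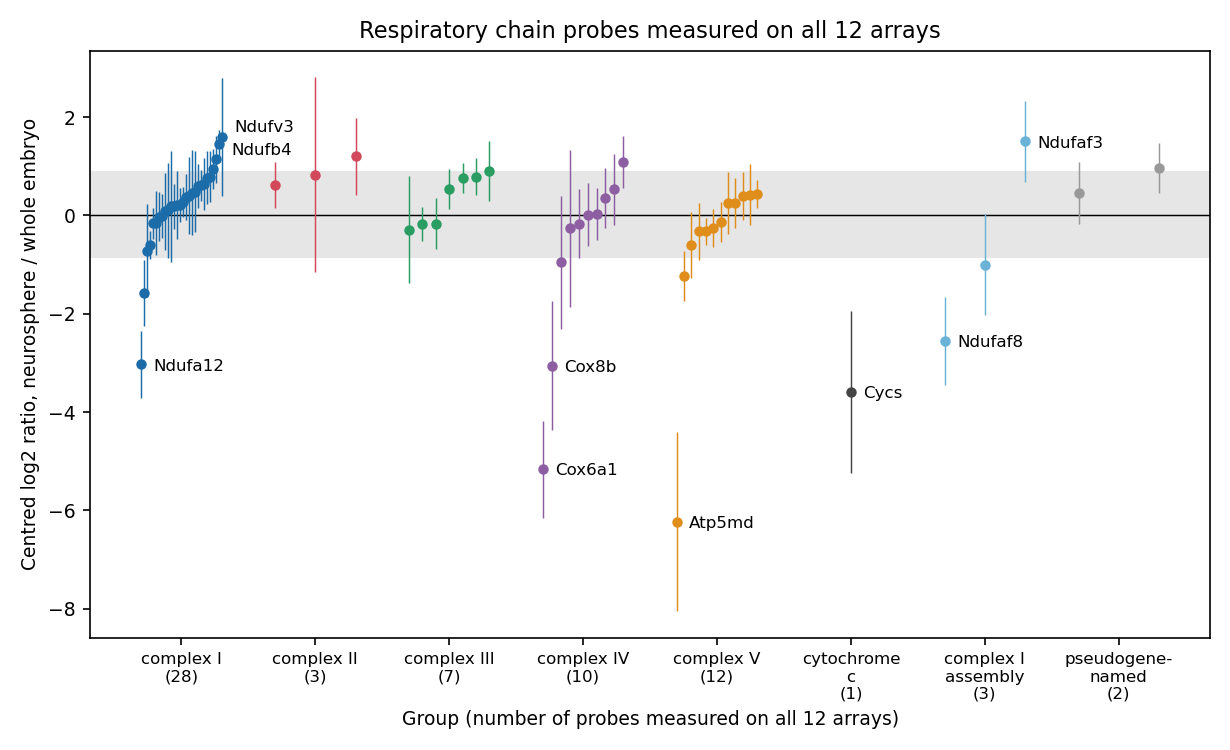
Mean centred log2 ratio of neurosphere to whole embryo (vertical axis) of each respiratory chain probe measured on all 12 arrays, by complex (horizontal axis), with bars of 1 SD over the 12 arrays; the grey band spans the quartiles of all 4532 probes measured throughout. Most members lay within 1 unit of the median probe, and Atp5md (−6.23), Cox6a1 (−5.16), Cycs (−3.59), Cox8b (−3.06), Ndufa12 (−3.03) and Ndufaf8 (−2.56) lay far below.

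In complex I, the redox core that carries electrons from NADH lay near the median probe: Ndufs7 averaged 0.76 ± 0.54, Ndufv2 0.40 ± 0.77, Ndufs3 0.27 ± 0.31, Ndufv1, the subunit that binds NADH, 0.09 ± 0.78, and Ndufs1 −0.72 ± 0.94 (SD, n = 12 arrays). Among the accessory subunits, the Ndufb genes, most of which encode membrane arm proteins, had a median of 0.41 ± 0.25 (9 genes) and the Ndufa genes one of −0.03 ± 0.24 (10 genes). Ndufb4, an accessory subunit of the membrane arm, read 1.88, 2.00 and 1.32 in controls at 24 h, 1.56, 1.71 and 1.35 in prominin cultures at 24 h, 1.37, 1.31 and 1.12 in controls at 108 h, and 1.10, 1.24 and 1.34 in prominin cultures at 108 h. It was positive on every array, with a mean of 1.44 ± 0.29, and Ndufb2 (1.14 ± 0.49) and Ndufb3 (0.94 ± 0.41) were as well. Ndufv3, a small subunit of the NADH-binding module, had the highest mean of the 66 (1.60 ± 1.20) but ranged from −0.02 to 3.13.

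Ndufa12, an accessory subunit, was the low exception. It lay between −4.04 and −2.16 on the 12 arrays, with a mean of −3.03 ± 0.68, and Ndufa2 averaged −1.58 ± 0.66. Both were negative on every array. The assembly factors spread more widely than the subunits: Ndufaf6 averaged 1.77 ± 1.70 (n = 11), Ndufaf3 1.51 ± 0.82 and Ndufaf5 1.02 ± 0.74 (n = 11), whereas Ndufaf2 averaged −1.0 ± 1.0 and Ndufaf8 −2.56 ± 0.89. The lowest values of Ndufaf3 and the highest of Ndufaf8 (0.10 and −0.95) did not overlap.

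Complex II, succinate dehydrogenase, also serves the citric acid cycle. Its flavoprotein gene Sdha averaged 0.83 ± 1.98, its iron-sulphur gene Sdhb 0.62 ± 0.46 and its membrane anchor gene Sdhc 1.20 ± 0.78. The wide spread of Sdha came with a value of 6.09 on control 108 h replicate 2, where the other 11 values lay between −1.99 and 1.50. The second anchor gene, Sdhd, stood apart from the other 3, with values of −8.10 to −3.53 on the 9 arrays that measured it and a mean of −6.17 ± 1.59. Its partners in the same complex were near or above 0.

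All 7 tested complex III genes lay within 1 of the median probe. The small subunit genes Uqcrb (0.90 ± 0.60), Uqcr11 (0.79 ± 0.37) and Uqcr10 (0.75 ± 0.30) and the Rieske protein gene Uqcrfs1 (0.53 ± 0.41) were positive on all 12 arrays. The 2 large core protein genes, Uqcrc1 (−0.17 ± 0.51) and Uqcrc2 (−0.18 ± 0.35), and the cytochrome c1 gene Cyc1 (−0.29 ± 1.09) lay slightly below 0. Uqcrq, for another small subunit, had the highest mean of all members measured on at least 8 arrays (3.35 ± 2.29, n = 8, range −0.01 to 7.60), and it was left out of the tests because only 1 control array at 24 h measured it. Cycs, the somatic cytochrome c that carries electrons from complex III to complex IV, was far lower than either complex: it read −3.17, −4.94 and −4.60 in controls at 24 h, −4.68, −4.36 and −5.01 in prominin cultures at 24 h, 0.94, −3.48 and −2.54 in controls at 108 h, and −2.92, −4.52 and −3.79 in prominin cultures at 108 h. It was negative on 11 of 12 arrays, and control 108 h replicate 1 was the exception.

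Complex IV, cytochrome c oxidase, has several subunits with tissue isoforms. Ndufa4 (1.09 ± 0.52), Cox6c (0.53 ± 0.72), Cox7c (0.35 ± 0.62), Cox4i1 (0.02 ± 0.53), Cox6b1 (0.01 ± 0.64), Cox5a (−0.17 ± 0.70), Cox5b (−0.26 ± 1.59) and Cox7a2 (−0.95 ± 1.36) covered the range around the median probe. Cox8b and Cox7a1, the isoforms known from heart and skeletal muscle, lay at −3.06 ± 1.32 (n = 12) and −3.39 ± 0.76 (n = 8 arrays, range −4.48 to −2.33), below 0 wherever they were measured. Of the 10 muscle marker genes on the array, which the whole embryo reference contains, 9 had negative means: Actc1 −6.34, Myl4 −6.04, Ckm −5.92, Tnni1 −5.61, Tnnc1 −5.57, Acta1 −5.34, Des −4.41, Tnnt2 −4.07 and Myl7 −3.48, with Myh6 at 2.54 on 6 arrays. The part of the reference's muscle RNA in the low isoform ratios was not tested. The third muscle isoform, Cox6a2, was measured on 7 arrays only, between −3.55 and 3.70.

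Cox6a1 is known as the widely expressed partner of Cox6a2, and it was the lowest complex IV probe. It read −3.92, −6.36 and −6.60 in controls at 24 h, −5.01, −5.42 and −6.45 in prominin cultures at 24 h, −5.04, −5.78 and −4.57 in controls at 108 h, and −3.54, −4.54 and −4.72 in prominin cultures at 108 h. All 12 ratios lay below those of Ndufa4, Cox6c, Cox4i1, Cox7c, Cox6b1 and Cox5a, genes of the same enzyme. Only 1 probe represented Cox6a1, so no second sequence on the array speaks to its level.

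Most of complex V lay close to the median probe, with 10 of its 12 probes measured on all arrays within 1 of it. The genes of its catalytic F1 part, Atp5b (0.24 ± 0.63), Atp5a1 (0.25 ± 0.51), Atp5d (−0.14 ± 0.40) and Atp5c1 (−0.33 ± 0.28), the stalk gene Atp5o (−0.25 ± 0.39) and the membrane ring gene Atp5g2 (0.43 ± 0.28) all lay within 0.5 of the median probe. Atp5pb, of the outer stalk, was lower at −1.24 ± 0.51 and negative on every array. The Atp5md gene, for a small protein of the ATP synthase, had 2 probes that disagreed: the probe measured on all 12 arrays averaged −6.23 ± 1.81 and the other lay between −1.18 and 5.86 on the 5 arrays that measured it. The level of Atp5md is therefore uncertain.

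The pseudogene-named probes Ndufs5-ps (0.96 ± 0.51) and Atp5k-ps1 (0.45 ± 0.63) lay near the subunits, and transcripts of a pseudogene and its parent gene cannot be told apart on such probes. The 16 members left out of the tests were measured on 3 to 10 arrays and held 89 exact zeros and 6 top codes. They were Ndufa3, Ndufab1, Ndufs4, Uqcrh, Uqcrq, Cox4i2, Cox6a2, Cox7a1, Cox7a2l, Cox7b2, Cox8a, Cox8c, Atp5g1, Atp5k, Atp5mpl and the second Atp5md probe. The 72 tested members held 8 zeros and no top code. Cox8a, the widely expressed partner of Cox8b, was measured on 5 arrays (−1.08 to 3.62), so that pair cannot be compared.

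Replicate arrays agreed more closely for the respiratory chain than for the array as a whole. The median residual SD within groups was 0.56 log2 units for the 72 tested members against 1.19 for all 9155 tested probes, and 0.55 against 0.89 where only probes measured on all arrays were counted. Complex III (0.40), complex V (0.50) and complex I (0.52) were the tightest, followed by complex IV (0.68), the assembly factors (1.04) and complex II (1.22). Genes of the cytosolic ribosome had 0.62.

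No respiratory chain gene passed the threshold in any of 7 comparisons. With limma and a Benjamini-Hochberg adjusted p of 0.05, 0 of 72 members were called for prominin against control at 24 h (0% of all 9155 probes called), at 108 h (0%), over both times (0%) or in the interaction (0%), or for 108 h against 24 h in controls (0%), in prominin cultures (0.0218%) or over both cultures (0.0546%). At an unadjusted p of 0.05, the members numbered 1 (1.39%, against 4.58% of all probes) for prominin at 24 h, 0 (against 6.82%) at 108 h, 1 (against 5.06%) over both times, 1 (against 5.95%) in the interaction, 1 (against 6.94%) with time in controls, 5 (6.94%, against 8.81%) with time in prominin cultures and 2 (2.78%, against 9.7%) over both. In each comparison the members' share lay below the background. Differences below are therefore descriptions of values that did not pass the test.

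All differences are relative to the median probe. Values without centring moved the median difference of all genes to 0.59 for prominin against control at 24 h, −1.07 at 108 h, 0.60 with time in controls and −1.08 with time in prominin cultures, so the sign of a difference smaller than these shifts rests on the centring. The comparisons of prominin at 108 h and of time in prominin cultures share the prominin 108 h arrays.

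With time in prominin cultures, 58 of 72 members were higher at 108 h and 14 lower, with a median difference of 0.44, against 50.3% higher among all probes and a median of −0.02 over all genes. Without centring the members' median turned to −0.63, and it remained above that of all genes by 0.46. Complex IV had 10 of 10 tested genes higher (median 1.04), complex II 4 of 4 (0.68), complex V 12 of 13 (0.54), complex III 6 of 7 (0.45) and complex I 20 of 28 (0.19), whereas the assembly factors had 3 of 7 (−0.40). Without centring 10 of the 72 members remained higher, 4 of them complex IV genes. The median of complex IV on single arrays was −0.31, −0.49 and −0.54 at 24 h, and 0.69, −0.33 and 1.21 at 108 h. Prominin 108 h replicates 1 and 3 were high, and replicate 2 lay among the 24 h arrays. Leaving out replicate 3 gave complex IV a median difference of 0.70, with 10 of 10 genes still higher, and moved complex V to 0.30 and complex III to 0.27. Leaving out replicate 1 at 108 h moved complex I to 0.11, and leaving out replicate 1 at 24 h moved complex V to 0.91.

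Where all 6 arrays had a value, 16 of 68 members (23.5%) had every 108 h prominin value above every 24 h one, against 8.63% of all probes. They were 5 genes each of complexes I and IV, 3 of complex V, 2 of complex II and 1 of complex III, that is Ndufa1, Ndufa13, Ndufb2, Ndufb10, Ndufs6, Ndufa4, Cox5b, Cox6a1, Cox6c, Cox7a2, Atp5b, Atp5l, Atp5md, Sdhb, Sdhc and Uqcr10. Without centring the difference stayed above 0 for 6 of the 16 (Atp5md, Cox7a2, Cox6c, Cox6a1, Ndufa1 and Ndufa13) and lay below 0 for the other 10. In the other direction 3 of 68 (4.41%, against 8.2%) did not overlap: Ndufv3, Ndufb4 and Atp5d.

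Cox7a2, the widely expressed isoform of subunit VIIa, read −1.24, −1.33 and −4.00 in prominin cultures at 24 h and 0.54, −0.56 and 0.95 at 108 h. The 2 groups did not overlap, and the difference was 2.50 with a standard error of 0.92 (limma adjusted p = 0.460). Without prominin 24 h replicate 3, where the value was −4.00, it was 1.60. Cox6c, a small structural subunit, read −0.72, −0.07 and −0.03 at 24 h and 1.49, 0.30 and 1.96 at 108 h. Its groups did not overlap either (difference 1.52, SE 0.58, limma adjusted p = 0.471). In controls the 2 genes read 0.63, −1.70 and −2.02 (Cox7a2) and 0.91, 0.38 and 0.10 (Cox6c) at 24 h, and −0.54, −1.48 and −0.72 and 0.56, 0.71 and 0.79 at 108 h, with overlapping times.

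The Atp5md probe measured on all arrays read −7.60, −8.07 and −7.36 in prominin cultures at 24 h and −3.83, −5.51 and −3.26 at 108 h. This was the largest difference of a member with time there (3.48, SE 1.06, limma adjusted p = 0.343), from a probe whose level its partner probe did not share. Ndufv3 went the other way, from 2.21, 3.08 and 3.13 to 0.71, 1.29 and −0.02 (difference −2.15, SE 0.84, limma adjusted p = 0.487). The assembly factor gene Ndufaf1, for a chaperone of early complex I intermediates, read −1.11, 3.23 and 2.84 at 24 h and −0.73, −2.04 and −1.62 at 108 h (difference −3.11, SE 1.07, limma adjusted p = 0.428), with overlap through prominin 24 h replicate 1. Without that replicate its difference was −4.50, and without prominin 24 h replicate 2 it was −2.32.

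Relative to the median probe, the members' median difference with time lay closer to 0 in controls than in prominin cultures. In controls 47 of 72 members were higher at 108 h (47.5% of all probes were), with a median of 0.15 (all genes −0.07). The complexes had medians of 0.17 (I), 1.01 (II), 0.09 (III), 0.11 (IV) and 0.10 (V). Without centring 70 of 72 members were higher in controls and 10 of 72 in prominin cultures, so the distance from 0 in each culture depends on the centring. Without control 24 h replicate 3 the members' median was 0.03, and without control 24 h replicate 1 it was 0.30. Groups did not overlap for 7 of 69 members upward (10.1%, against 6.45%) and 2 of 69 downward (2.9%, against 7.58%). Sdhb and Ndufs6 were in the upward sets of both cultures. Sdhb read 0.28, 0.44 and −0.37 in controls at 24 h and 0.90, 1.01 and 0.87 at 108 h, and 0.07, 0.45 and 0.63 in prominin cultures at 24 h and 0.97, 0.99 and 1.19 at 108 h. The Sdhb difference was 0.81 in controls and 0.67 in prominin cultures, where it turned to −0.40 without centring. Over both cultures Sdhb differed by 0.74 (SE 0.35, limma adjusted p = 0.529) and Sdhc by 0.95 (SE 0.44, limma adjusted p = 0.522). Cycs had the smallest p in controls (difference 2.54, SE 1.02, limma adjusted p = 0.655), and without control 108 h replicate 1, the array with its single positive value, the difference was 1.23. Sdha differed by 2.62 (SE 1.42, limma adjusted p = 0.743) and by 0.82 without control 108 h replicate 2 and 3.95 without replicate 3. Leaving out control 24 h replicate 3 turned the complex IV median to −0.06, and leaving out replicate 2 raised that of complex II to 1.81 (3 genes).

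Of the members lower with time in controls, Ndufa10 and the assembly factor gene Ndufaf7 had the smallest p. Ndufa10, an accessory subunit of complex I, read 3.63, −0.17 and −0.45 at 24 h and −0.67, 0.40 and −0.39 at 108 h (difference −1.22, SE 0.93, limma adjusted p = 0.819). Ndufaf7 read 3.04, 0.05 and 0.64 at 24 h and −0.38, −0.03 and 1.23 at 108 h (difference −0.97, SE 0.85, limma adjusted p = 0.837). Both differences rested on control 24 h replicate 1, without which they were 0.08 and −0.08. That array also had the smallest share of probes measured (47.9%).

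**Figure D2:**
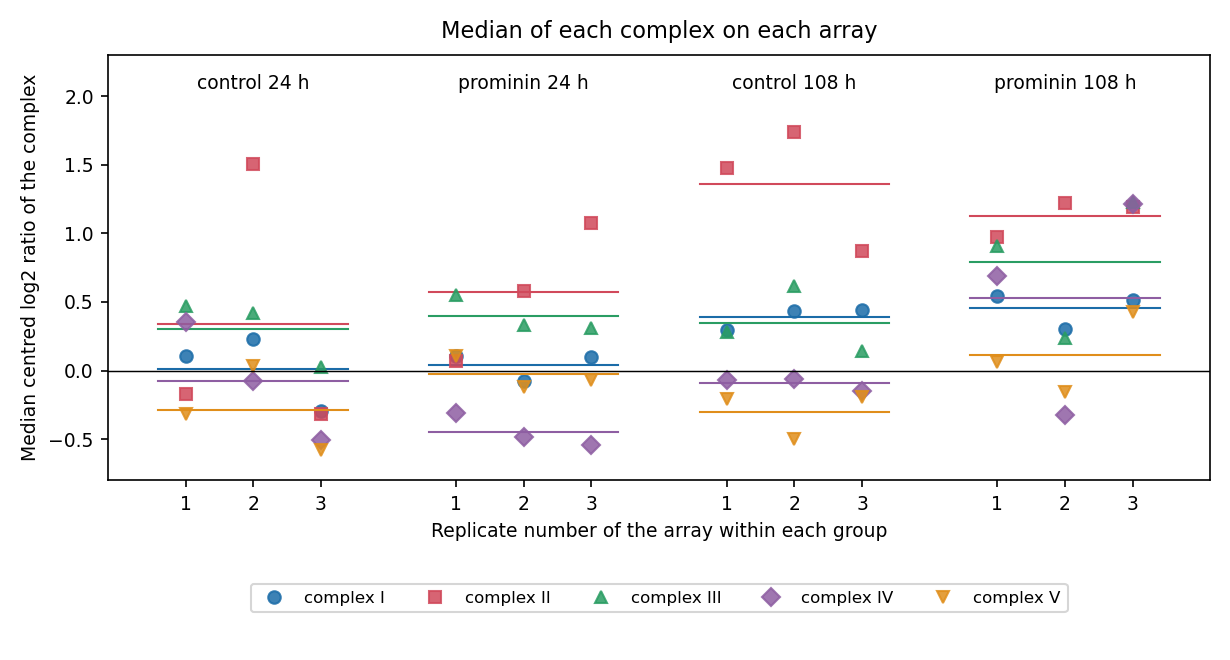
Median centred log2 ratio (vertical axis) of the genes of each complex measured on all 12 arrays, on each array (horizontal axis, replicate number within the 4 groups); horizontal lines mark group means. Complex IV lay at 0.69 and 1.21 on prominin 108 h replicates 1 and 3 but at −0.33 on replicate 2, and complex III lay above complex V on every array; the heights, not the order within an array, depend on the centring.

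At 24 h the differences between prominin and control cultures were spread around 0. Of 72 members 34 were higher and 38 lower in prominin cultures, with a median difference of −0.01 (all genes −0.08, and 46% of all probes higher). Complex IV had 2 of 10 genes higher (median −0.17), complex V 6 of 13 (−0.06) and complex III 5 of 7 (0.06). Complex I had 14 of 28 (0.07) and complex II 3 of 4 (0.30). The members' median was −0.17 without control 24 h replicate 3 and 0.07 without replicate 1. Groups did not overlap for 2 of 68 upward (2.94%, against 4.33%) and 3 of 68 downward (4.41%, against 5.93%). Ndufaf6, an assembly factor gene, had the smallest p: it read 0.72, −0.17 and 0.90 in controls and 3.02, 2.14 and 4.57 in prominin cultures, without overlap (difference 2.76, SE 1.05, limma adjusted p = 0.998). At 108 h the control values were 1.36, 1.02 and 0.48 and the prominin values 0.55 and 4.89 on the 2 arrays that measured it, so the groups overlapped. Upward at 24 h, Ndufaf1 (2.50) and Cyc1 (1.53) came next in p, and Cyc1 was 0.65 without control 24 h replicate 1. Downward, Cox8b differed by −1.55, Cox6c by −0.74 and Cox7a2 by −1.16, of which only Cox6c had no overlap. Without centring these were −0.87, −0.06 and −0.49. Cox7a2 was −0.25 without prominin 24 h replicate 3.

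At 108 h 54 of 72 members were higher in prominin cultures and 18 lower, with a median difference of 0.31, against 50.1% higher among all probes and a median near 0 (−0.00) over all genes. Without centring the members' median was −0.77, with 3 of 72 above 0, and it lay above the all-gene median by 0.30. Complex IV had 9 of 10 genes higher (median 0.69), complex V 11 of 13 (0.48), complex III 6 of 7 (0.28), complex I 20 of 28 (0.26) and complex II 2 of 4 (−0.24). The members' median on single arrays was 0.10, 0.22 and 0.16 in controls and 0.54, 0.20 and 0.66 in prominin cultures, where replicate 2 lay among the controls. Without prominin 108 h replicate 3 the median difference was 0.22, and without replicate 2 it was 0.40, with 47 of 70 and 53 of 71 members higher. The complex II median changed sign over single arrays left out (−0.74 to 0.17), and that of complex I was 0.17 without prominin 108 h replicate 3. Groups did not overlap for 5 of 69 members upward (7.25%, against 6.37%) and 2 of 69 downward (2.9%, against 6.62%), shares near or below the background.

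Uqcr10, a small subunit of complex III, was 1 of the 5: it read 0.61, 0.79 and 0.45 in controls and 1.07, 1.17 and 1.37 in prominin cultures at 108 h (difference 0.58, SE 0.47, limma adjusted p = 0.830), and without centring the difference turned to −0.49. These 3 prominin values were also above all 6 values at 24 h (0.47 to 0.77). Atp5b, the catalytic beta subunit of the synthase, read 0.11, −0.34 and 0.12 against 0.71, 0.26 and 2.08 (difference 1.05, SE 0.57, limma adjusted p = 0.739), and without centring its difference was −0.02. Without prominin 108 h replicate 3 it was 0.52. Atp5e, the epsilon subunit, read −1.10, −0.76 and −0.75 against −0.14, −0.17 and 0.80 (difference 1.03, SE 0.58, limma adjusted p = 0.745), and −0.04 without centring. Cycs differed the other way (−2.05, SE 1.02, limma adjusted p = 0.725), and by −0.73 without control 108 h replicate 1. Sdha (−1.64) and Ndufaf1 (−1.19) were also lower, and Sdha turned to 0.18 without control 108 h replicate 2. Atp5md, on the probe measured on all arrays, was higher (1.86).

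**Figure D3:**
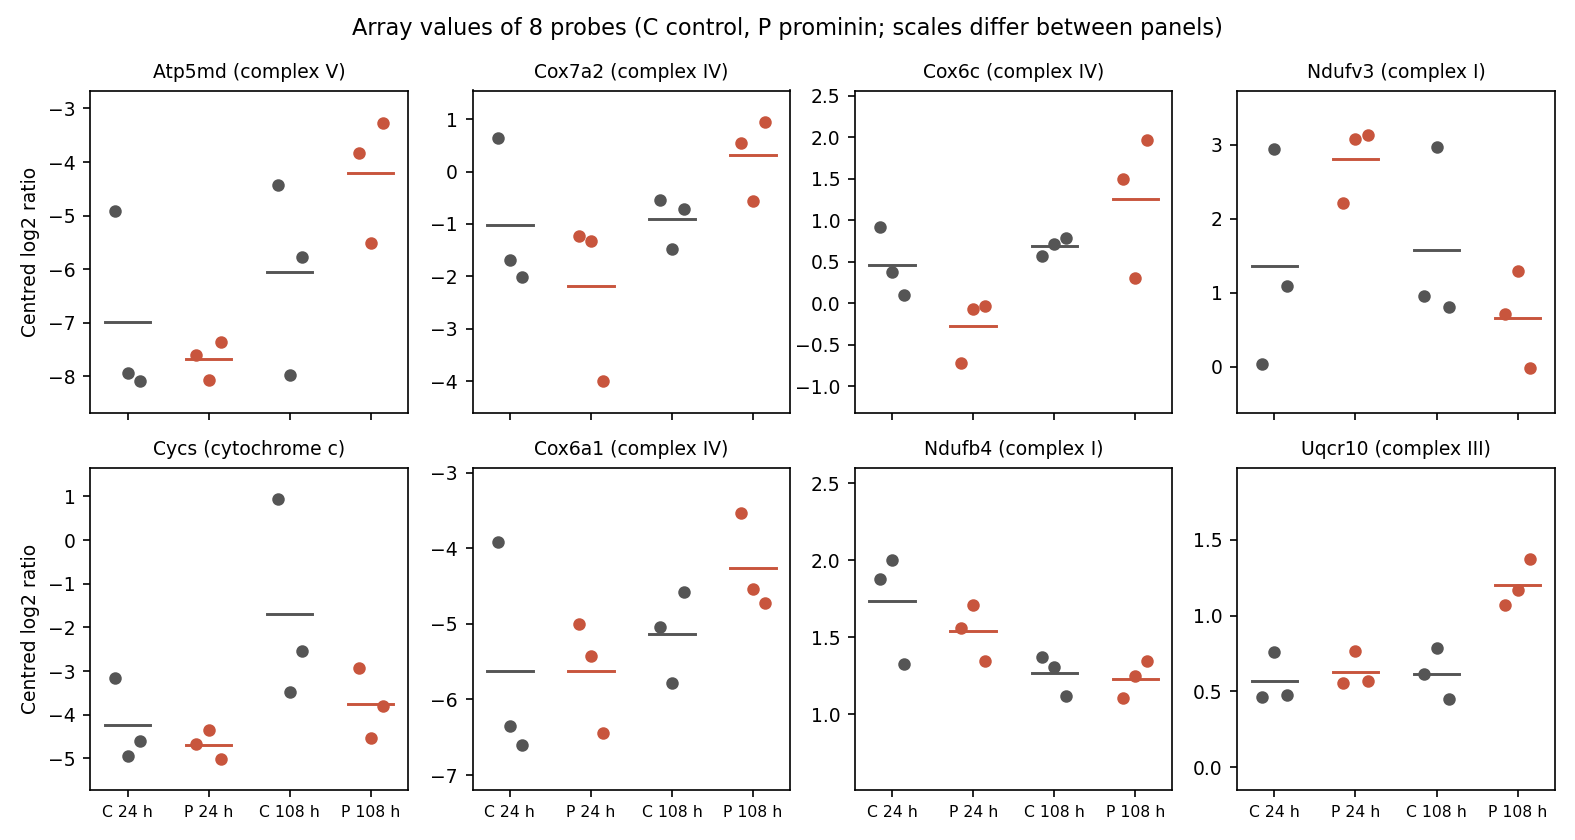
Centred log2 ratio (vertical axes, which differ between panels) of 8 respiratory chain probes on each array, by group (C control, P prominin cultures); points are arrays and lines are means of 3. Prominin values at 108 h lay above those at 24 h for Atp5md, Cox7a2, Cox6c, Cox6a1 and Uqcr10 and below them for Ndufv3 and Ndufb4 relative to the median probe (without centring Uqcr10 turned to −0.49), and control 108 h replicate 1 stood apart for Cycs (0.94).

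The interaction, which asks whether the prominin difference changed between the times, had a median of 0.32 over the members (48 of 72 above 0, against 51.5% of all probes) and of 0.86 in complex IV (9 of 10), against 0.04 over all genes. The members' median was −1.45 without centring, and 0.03 after quantile normalization. Without prominin 108 h replicate 3 it was 0.20. Ndufaf1 had the smallest p, with an interaction of −3.69 (SE 1.61, limma adjusted p = 0.817). Ndufv3 (−2.36) and Cyc1 (−2.18) came next below 0. Above it, Cox7a2 (2.39), Atp5md (2.56) and Ndufa4 (1.22) had the smallest p, and without centring they were 0.63, 0.80 and −0.53. Over both times 50 of 72 members were higher in prominin cultures (47.9% of all probes, median 0.20), a median that was 0.09 without control 24 h replicate 3 and 0.12 without prominin 108 h replicate 3. Ndufb8, an accessory subunit of the complex I membrane arm, differed by 0.68 (SE 0.53, limma adjusted p = 0.959) and by 0.21 without prominin 24 h replicate 1, where it read 2.82 and the other 11 arrays −0.62 to 1.19. Over both cultures 55 of 72 were higher at 108 h (48.3%, median 0.30).

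**Figure D4:**
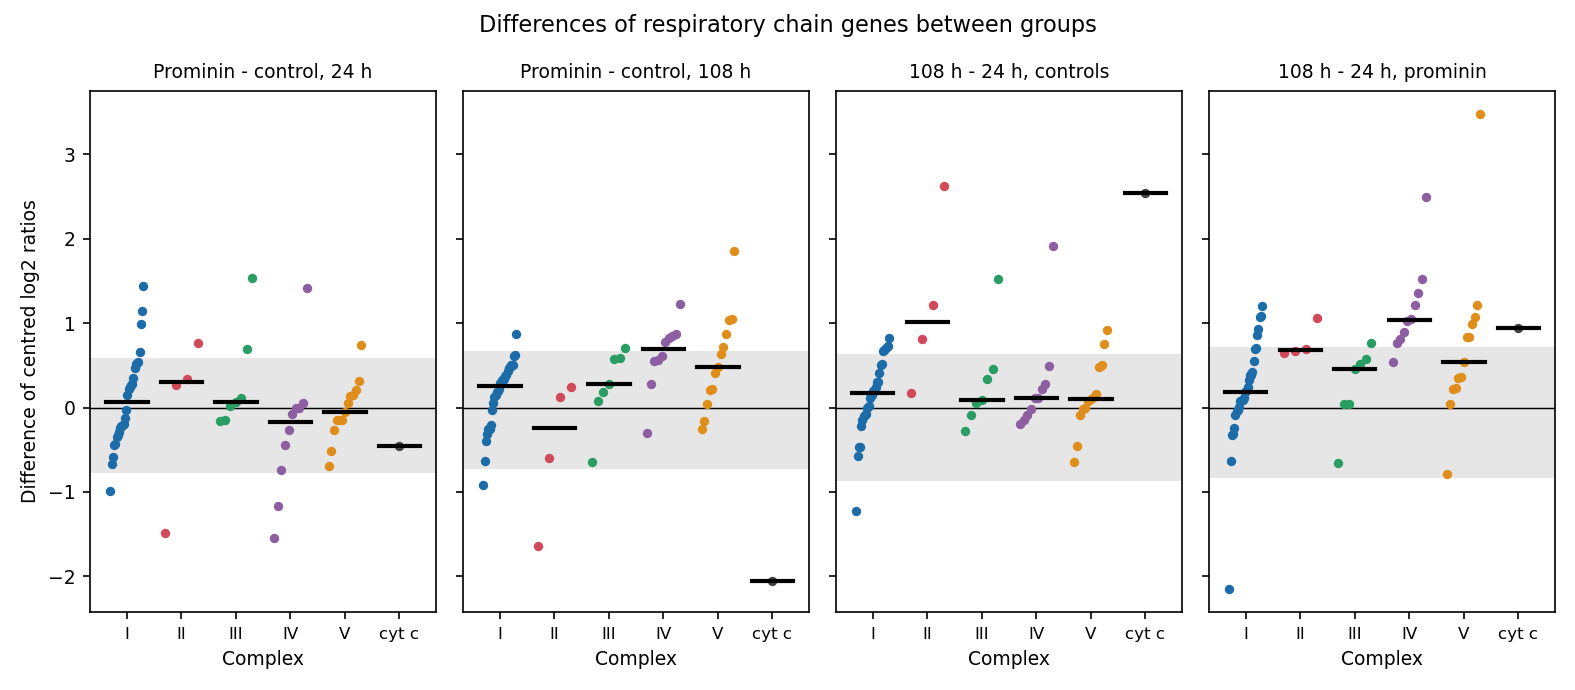
Difference of centred log2 ratios (vertical axis) of each tested subunit gene and of cytochrome c in 4 comparisons (panels), by complex (horizontal axis); black lines are medians of a complex and the grey band spans the quartiles of all genes. In prominin cultures all 10 complex IV genes lay above 0 with time (median 1.04), relative to the median probe, and no single point passed the test. Without centring 4 of the 10 lay above 0.

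Other genes of mitochondrial metabolism did not all follow the subunits. No gene of these mitochondrial lists passed the test in any of the 7 comparisons. With time in prominin cultures, 8 of 14 genes of pyruvate dehydrogenase and the citric acid cycle were higher (median 0.12), 35 of 68 mitochondrial ribosomal genes (0.04), 13 of 24 import genes (0.03), 6 of 11 complex IV assembly genes (0.09), 5 of 12 assembly genes of other complexes (−0.70), 6 of 7 carriers and channels (0.17), 3 of 5 mitochondrial antioxidant genes (0.05) and 0 of 7 genes of mitochondrial biogenesis and genome upkeep (−1.04). Polg, the mitochondrial DNA polymerase, was lowest in p there (−3.11, SE 0.76, limma adjusted p = 0.234), and Atpif1, the inhibitor of the ATP synthase and a member of the carrier list, differed by 1.77 (SE 0.60, limma adjusted p = 0.387). At 108 h the citric acid cycle genes had 3 of 14 higher in prominin cultures (median −0.55) and the carriers and channels 6 of 7 (0.09), where the members had 54 of 72. In level, complex I lay above the mitochondrial ribosome on 11 of 12 arrays by 0.52 ± 0.30 and above the citric acid cycle list on 11 of 12 by 0.43 ± 0.33. Complexes II and III lay above both lists on 11 or 12 arrays. Complexes IV and V had no settled order against the citric acid cycle list (higher on 7 of 12 arrays each, 0.18 ± 0.67 and 0.07 ± 0.46). They exceeded the mitochondrial ribosome on 8 and 9 of 12 (0.27 ± 0.56 and 0.17 ± 0.39).

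Several other lists differed in the same comparisons, and their part in the members' values was not tested. Cytosolic ribosomal genes had 54 of 59 higher with time in prominin cultures (median 1.54) and 54 of 59 higher in prominin cultures at 108 h (median 1.22), larger than the members' 0.44 and 0.31. The list's median on single prominin arrays was −0.79, −0.99 and −1.11 at 24 h and −0.16, −0.06 and 1.74 at 108 h, so replicate 3 stood apart at 108 h. Without that replicate the list had 50 of 58 genes higher in each comparison, with medians of 1.12 and 0.71. On that array 49 probes lay within 0.005 of 1 shared deposited value (0.007, or 2.33 after centring), among them 10 of the 68 ribosomal probes measured there and none of the respiratory chain probes. Erythroid markers had 4 of 4 tested genes higher in both (medians 3.89 and 1.99): Hba-a1, which passed the test with time in prominin cultures (6.19, SE 0.72, limma adjusted p = 0.0122), averaged −4.86 ± 0.83 in controls and −6.18 ± 0.85 in prominin cultures at 24 h and −1.98 ± 0.98 and 0.01 ± 0.56 at 108 h. Muscle markers had 6 of 6 higher with time in prominin cultures (median 1.11), and neural stem and radial glia markers 0 of 6 (−0.55). Probes with very low ratios moved likewise: 400 probes with a mean below −2 had a median difference of 0.30 with time in prominin cultures, against 0.03 for the 2555 probes within 1 of the median probe. Of the members measured on all arrays with a mean below −2, Atp5md and Cox6a1 were in the set without overlap. The others, Cycs, Cox8b, Ndufa12 and Ndufaf8, had overlapping groups with time in prominin cultures. In whole cultures, fewer cells of a type and less RNA per cell cannot be told apart.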

How the data were processed

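Total RNA of 12 neurosphere samples was extracted with Trizol, cleaned on RNeasy columns and labelled with dendrimers, per the labels' protocols. The authors deposited 1 table of log2 ratios per probe and array. Log base, direction, normalization and scanner were not stated for it, and log2 was read from the values, which include ratios of small whole numbers. Groups and replicate numbers came from titles. Gene names came from the platform annotation, which can be old: 16620 probes had 1 symbol, 113 several and 5005 none.

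Exact 0 and the top code were set to missing, and the median over the 4532 probes with a value on all 12 arrays was subtracted from each array. Testing used limma 3.58.1 (R 4.3.3) on the 9155 probes that had 2 or more values in every group (a mean for each of the 4 groups, 7 contrasts, moderated variance, Benjamini-Hochberg over all probes of a contrast, threshold 0.05). The procedure was tested on simulated data, with changes larger than most member differences described here. Recovery of changes of the members' size was not tested. The number of arrays limits precision. Probes of a gene were averaged only for the medians over all genes. Complex levels are means over arrays of each array's median.

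Named in the text were catalytic or redox-core subunits, tissue isoforms, and the 3 highest and lowest members measured on at least 8 arrays. From each comparison, members were named from among the 3 with the smallest p in each direction, and not all of them are given. Others were named by role, or after their values were seen (Uqcr10, Ndufa12, Ndufa2 and genes whose groups did not overlap). Members and lists were chosen with earlier results of these data known. Alternatives changed centring, codes, filters, probe averaging, weights, the replicate block and single arrays. Promoter sequences are RefSeq's.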

Additional observations from a re-analysis of the deposited data

How the results depend on the processing

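No respiratory chain gene was called in any comparison under any of the 22 alternatives run, and the members' median stayed above that of all genes in 22 of 22 alternatives for 108 h prominin against control (by 0.15 to 0.40), for time in controls, in prominin cultures (0.36 to 0.58) and over both, and for prominin over both times. It did so in 21 of 22 for the interaction (−0.14 with codes kept) and 20 of 22 for prominin at 24 h. Medians of the difference without centring were 0.66 (prominin at 24 h), −0.77 (at 108 h), −1.45 (interaction), 0.84 (time in controls), −0.63 (time in prominin cultures) and −0.00033 (prominin over both times). After quantile normalization they were 0.25 for prominin at 24 h and 0.034 for the interaction. Without replicate 1 of both 24 h groups, chosen after seeing the data, the median with time over both cultures was 0.51. Levels without centring were −1.38, −0.75, −1.14, −1.62 and −1.73 for complexes I to V. Complex V lay at 0.18 with codes kept and complex I at 0.69 with small whole-number ratios left out (also chosen after seeing the data). The causes were not tested.

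Counts of probes called over the whole array moved more. With codes kept they were 25 (prominin at 24 h), 25 (prominin over both times), 17 (interaction), 11 (time in controls), 16 (time in prominin cultures) and 26 (time over both). With only probes on all 12 arrays they were 2, 21 and 34 for the 3 time comparisons. For time in prominin cultures the count of 2 became 7 without centring, 1 with probes averaged to genes and 6 without small whole-number ratios. For time over both cultures the count of 5 became 2 with at least 1 value per group, 16 with array weights, 29 without small whole-number ratios and 14 without both first 24 h arrays. Prominin at 24 h gave 1 with probes averaged, and prominin over both times gave 1 without small whole-number ratios. Leaving out 1 array gave 1 to 3 with time in prominin cultures, 2 to 9 over both cultures and 0 to 1 for prominin at 24 h.

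Single genes turned sign without centring: Atp5b at 108 h (−0.024), Atp5e at 108 h (−0.043) and with time in controls (0.046), Uqcr10 at 108 h (−0.49), Sdhb with time in prominin cultures (−0.40) and Ndufa4 in the interaction (−0.53). Over all 72 members 51 turned at 108 h and 48 with time in prominin cultures. The time difference of Ndufa10 in controls turned to 0.086 without both first 24 h arrays and lay between −1.94 and 0.078 over single arrays left out. That of Sdha between cultures at 108 h lay between −2.96 and 0.18.

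Same-numbered arrays of different groups had correlated deviations of −0.07 to 0.12 (median 0.05), against −0.12 to 0.12 (median −0.02) for other pairs, and 3 of 18 same-numbered pairs exceeded 0.1. The numbers were not taken as a pairing, because this was not so for every pair. In 12 of 18 comparisons an array correlated best with its own number, where 6 of 18 would fall so without pairing, which is a hint from the data and not from the design. With the replicate block the count for time over both cultures fell from 5 to 2, and the members' median stayed at 0.44 with time in prominin cultures.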
